A study of Mus musculus with 2 samples.

Results

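The 9 genes *Hmox1*, *Srxn1*, *Nqo1*, *Gclm*, *Gclc*, *Txnrd1*, *Slc7a11*, *Mt1* and *Mt2*, of 27998 genes counted, were followed through Tomato+ cells of healed mouse skin wounds. All 9 were found by symbol. They were picked from their own counts, by lineage, by library and by the presence of *Areg* transcripts, so the levels and ratios below describe these libraries and are not tested. The control library came from SM22rtTA; tetO-Cre; R26-Tomato mice and the *SM22-SmoM2* library from SM22rtTA; tetO-Cre; R26-SmoM2/Tomato mice, with 1 library per condition. Mice of both groups were 4 to 5 weeks old and carried SM22rtTA and tetO-Cre. They were given doxycycline (20 g/kg) from day 1 after wounding, and the wound dermis was harvested 3 days after re-epithelialization was complete. By the sample records, tissue of both groups was kept in 20 mM EDTA for 1 h at 37 °C. The paper gives a shorter time for this EDTA step, and also describes digestion of the dermis with collagenase before sorting. The part of this handling in the levels was not tested. Doxycycline lets the *SM22α* promoter switch on Cre, which turns on the red protein Tomato in both groups and, in the *SM22-SmoM2* group only, SmoM2, an always active form of Smoothened that drives Hedgehog (Hh) signaling. Wounds of several mice were pooled in each library, so the spread between mice cannot be seen. All intervals below are 95% and cover counting error only.

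After filtering, 2856 control and 1792 *SM22-SmoM2* cells remained, with medians of 8607.5 and 8837.5 unique molecular identifiers (UMIs, each marking 1 captured transcript) per cell. Fibroblasts numbered 1026 and 1034 (control and *SM22-SmoM2*), endothelial cells 691 and 264, Schwann cells 674 and 291, muscle cells of vessels 283 and 100, and immune cells 92 and 33. The Tomato+ sort thus held lineages other than fibroblasts. *Col1a1*, the main collagen gene of fibroblasts, was at 23098 UMIs per 1000000 (CPM) in control fibroblasts and 16139 in *SM22-SmoM2* fibroblasts, against 2309 and 2539 CPM in immune cells. A further 51 cells, all from *SM22-SmoM2*, formed a cluster that no marker list named, and they are not in the fibroblast sums below. Their leading genes included *Rspo3*, *Wif1*, *Sox11* and *Alpl*. The paper reports *Alpl* in a small part of its Hh-active fibroblasts. Whether these cells are of that kind was not tested. Another 74 control and 18 *SM22-SmoM2* cells were left out of the fibroblasts because markers of another lineage led their sub-clusters.

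Most of the 9 genes belong to the antioxidant program of the transcription factor NRF2 (*Nfe2l2*), which is held in check by KEAP1 and, on shared DNA elements, opposed by the repressor BACH1. Oxidants and electrophiles release NRF2, and its target enzymes then detoxify heme, rebuild glutathione and thioredoxin, and repair oxidized proteins. Metallothioneins are small cysteine-rich proteins that bind zinc and copper and can scavenge oxidants. Their genes are switched on by metals through the factor MTF1, and also by stress hormones. Healing skin is exposed to oxidants from inflammatory cells, and heme from lysed red cells is a further load.

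In fibroblasts, 3 of the 9 genes were more than 2-fold higher in *SM22-SmoM2* than in control and none was more than 2-fold lower, out of 8 genes with at least 50 UMIs over both libraries. Of all 11399 genes measured in the same way, 4.68% passed 2-fold upward and 4.95% downward. The genes were chosen with this contrast known, so nothing is read from the counts. *Hmox1*, *Srxn1* and *Mt2* were the 3, while *Gclm*, *Gclc*, *Txnrd1*, *Nqo1* and *Mt1* lay within 2-fold. The median log2 ratio of the 8 genes was 0.35, beside -0.08 over all genes measured. The 5 immune markers summed to 86.4 CPM in control and 32.8 in *SM22-SmoM2* fibroblasts. Of these, *Cd74* (53.5 and 12.4 CPM) and *H2-Aa* (22.7 and 4.78 CPM) were lower in *SM22-SmoM2*. *Lyz2* (7.41 and 11.1 CPM), *Cd68* (2.67 and 3.77 CPM) and *Ptprc* (2 and 8 UMIs) were higher. The 6 fibroblast markers summed to 36510 and 21525 CPM, and among them only *Pdgfra* was higher in *SM22-SmoM2* (77.4 and 101 CPM). Of the sexed cells, 193 in control but 45 in *SM22-SmoM2* were female. The part of these values in the ratios was not tested.

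*Hmox1* encodes heme oxygenase 1, which breaks heme down to biliverdin, carbon monoxide and iron. It lies on chromosome 8 (75093621 to 75100589, GRCm38, forward strand). Fibroblasts held 997 UMIs of it in control and 4542 in *SM22-SmoM2*, or 73.8 and 381 CPM, a log2 ratio of 2.37 (2.27 to 2.47). The other lineages apart from immune cells hardly differed between libraries. It was at 77.1 and 80.9 CPM in endothelial cells, 81.1 and 87.9 in Schwann cells, and 53.4 and 56.4 in muscle cells, and the interval of the log2 ratio held 0 in each. Control fibroblasts therefore stood near endothelial and Schwann cells and above muscle cells. The summed level of *SM22-SmoM2* fibroblasts stood well above all of these, though below immune cells (1017 and 2202 CPM). Not all of them shared it, since 672 *SM22-SmoM2* fibroblasts described further below had 75.4 CPM together.

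*Srxn1* encodes sulfiredoxin, which restores over-oxidized peroxiredoxins, and lies on chromosome 2 (152105516 to 152111376, forward strand). Fibroblasts had 48.4 CPM in control and 119 in *SM22-SmoM2*, for a log2 ratio of 1.30 (1.17 to 1.44). Endothelial cells had 9.06 and 8.22 CPM, Schwann cells 21.7 and 24.1, muscle cells 12.5 and 6.64, and immune cells 93.0 and 98.5. Fibroblasts thus ranked behind immune cells in control, whereas in *SM22-SmoM2* the intervals of the 2 lineages overlapped. Fibroblasts held 68.2% of the *Srxn1* UMIs of the control library and 90.9% of those of the *SM22-SmoM2* library, where they held 44.9% and 67.0% of all UMIs.

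The enzymes that make glutathione lay close to 1-fold. *Gclc* and *Gclm* encode the catalytic and the modifier subunit of glutamate-cysteine ligase, the first step of glutathione synthesis. *Gclm* was at 34.3 CPM in control fibroblasts and 35.9 in *SM22-SmoM2* fibroblasts, a log2 ratio of 0.06 (-0.13 to 0.26). *Gclc* was at 10.1 and 12.4 CPM, a log2 ratio of 0.30 (-0.05 to 0.65). Both intervals hold 0 and exclude a 2-fold difference. *Txnrd1*, the cytosolic thioredoxin reductase, was at 43.1 and 56.6 CPM, a log2 ratio of 0.39 (0.23 to 0.56).

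*Nqo1*, a quinone reductase and a classical NRF2 target, was barely detected, with 45 UMIs (3.33 CPM) in control and 36 UMIs (3.02 CPM) in *SM22-SmoM2* fibroblasts. *Slc7a11*, the cystine importer that feeds glutathione synthesis, had 20 and 12 UMIs in fibroblasts, too few for a ratio. Its UMIs lay mostly in immune cells, which held 119 of the 179 in the control library and 21 of the 41 in the *SM22-SmoM2* library. At this depth, low counts do not show that either gene is off. *Nqo1* lies on chromosome 8 (107388225 to 107403206), *Slc7a11* on chromosome 3 (49892526 to 50443614), *Gclm* on chromosome 3 (122245557 to 122270732), *Gclc* on chromosome 9 (77754535 to 77794485) and *Txnrd1* on chromosome 10 (82833951 to 82897712), the first 2 on the reverse strand. *Gclm*, *Txnrd1* and *Slc7a11* overlap other annotated genes on the same strand, so their counts are less certain.

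*Mt1* and *Mt2* encode the 2 metallothioneins found in most tissues and lie as neighbours on chromosome 8 (*Mt2* at 94172664 to 94173568, *Mt1* at 94179082 to 94180327, both on the forward strand), with 5513 bases between them. In fibroblasts, *Mt2* was at 79.3 CPM in control and 174 in *SM22-SmoM2*, a log2 ratio of 1.13 (1.02 to 1.24). *Mt1* was at 202 and 237 CPM, a log2 ratio of 0.23 (0.16 to 0.31). Schwann cells had more of both than fibroblasts, with *Mt1* at 599 and 508 CPM and *Mt2* at 268 and 279 CPM. Endothelial cells had the lowest levels of both genes, with *Mt1* at 61.8 and 77.9 CPM and *Mt2* at 16.5 and 27.3 CPM.

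Short DNA motifs were searched in the 250 bases before each gene's start in RefSeq (GRCm38.p6), which can differ from the starts given above. Of the 9 genes, 7 had an entry. The sequences before *Srxn1*, *Mt2* and *Mt1* are shown because the values below turn on these 3 genes beside *Hmox1*, which had no entry, like *Gclc*. Capitals mark matches, on either strand, to the antioxidant response element core (TGACNNNGC or TGAGNNNGC), the metal response element core (TGCACNC or TGCGCNC) and the AP-1 site (TGANTCA). All 3 lie on the forward strand and read 5′ to 3′, at chr2:152105274-152105523, chr8:94172368-94172617 and chr8:94178839-94179088.
Srxn1: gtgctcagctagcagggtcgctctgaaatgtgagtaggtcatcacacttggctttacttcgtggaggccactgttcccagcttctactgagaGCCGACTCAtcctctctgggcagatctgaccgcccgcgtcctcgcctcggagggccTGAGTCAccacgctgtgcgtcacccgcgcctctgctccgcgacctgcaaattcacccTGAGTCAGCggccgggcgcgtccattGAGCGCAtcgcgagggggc
Mt2: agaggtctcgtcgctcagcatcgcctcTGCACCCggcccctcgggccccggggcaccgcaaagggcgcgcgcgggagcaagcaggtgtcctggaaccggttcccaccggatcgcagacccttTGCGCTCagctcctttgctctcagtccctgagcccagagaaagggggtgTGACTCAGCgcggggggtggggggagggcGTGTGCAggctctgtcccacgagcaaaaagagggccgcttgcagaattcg
Mt1: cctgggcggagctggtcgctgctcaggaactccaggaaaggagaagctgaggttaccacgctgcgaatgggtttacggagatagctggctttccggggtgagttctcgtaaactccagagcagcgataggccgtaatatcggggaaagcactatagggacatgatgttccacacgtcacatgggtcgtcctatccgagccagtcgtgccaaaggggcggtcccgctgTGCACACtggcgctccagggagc

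Before *Srxn1* there were 2 matches to the antioxidant core, starting 158 and 45 bases before the start, and 2 AP-1 matches, at 102 and 45 bases, where the 2 motifs overlap. Before *Mt2*, both motifs overlap again, with 1 match each 79 bases before the start, and there were 3 metal element matches, at 223, 128 and 50 bases. *Srxn1* and *Mt1* had 1 metal element match each within these windows. Bases outside the window were not searched for any gene, and for these 3 genes bases before another start were not searched. The numbers of matches are thus not those of a whole promoter, and *Mt1* and *Mt2* cannot be ranked by them. Of the other genes searched, *Gclm*, *Slc7a11* and 1 start of *Txnrd1* also had an antioxidant core, 134, 97 and 92 bases before the start. *Gclm* had 2 metal element matches as well, and *Nqo1* had no match to any motif within its window. The antioxidant core thus also lay before genes within 2-fold between the libraries, such as *Gclm* and *Txnrd1*. Of 32851 promoters of the same length, 23.0% held an antioxidant core, 21.4% a metal element core and 6.75% an AP-1 site. A match is a string of letters and not a site shown to be bound.

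**Figure D1:**
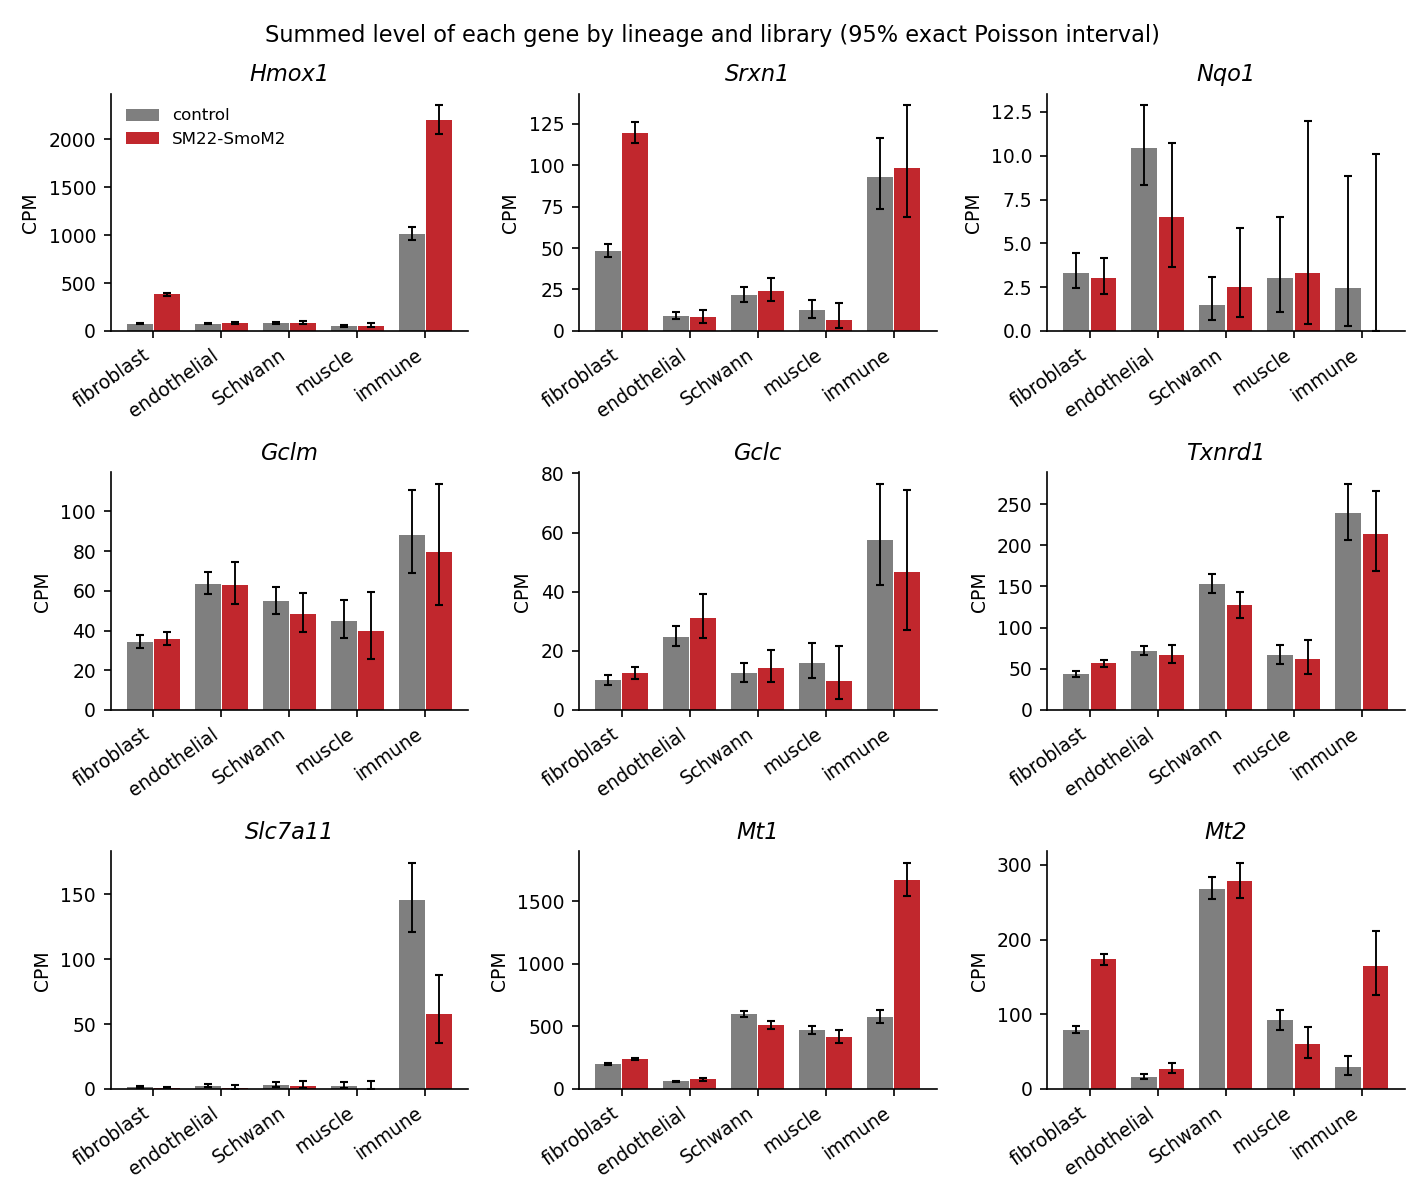
Summed level (CPM, linear axes that start at 0) of each of the 9 genes in 5 lineages, control in grey and *SM22-SmoM2* in red, with 95% exact Poisson intervals. *Hmox1*, *Srxn1* and *Mt2* differ between libraries in fibroblasts but hardly in Schwann cells, and immune cells carry the highest *Hmox1* and *Slc7a11*.

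Outside fibroblasts, none of the measured genes passed 2-fold between libraries in endothelial cells (0 of 8, beside 2.17% of all genes), Schwann cells (0 of 7, beside 2.94%) or muscle cells (0 of 5, beside 4.12%). Immune cells differed more. Of 8 measured genes, 3 were more than 2-fold higher and 1 was more than 2-fold lower in *SM22-SmoM2*, where 9.34% of all genes passed 2-fold in either direction. *Hmox1* was at 1017 CPM in control immune cells and 2202 in *SM22-SmoM2* immune cells, a log2 ratio of 1.11 (0.97 to 1.26). *Mt1* was at 578 and 1669 CPM (log2 ratio 1.53, 1.35 to 1.71), and *Mt2* at 29.4 and 164 CPM (2.48, 1.78 to 3.23). *Slc7a11* went the other way, from 146 to 57.4 CPM (-1.34, -2.09 to -0.66).

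These immune values rest on 92 and 33 cells, and the 2 sets were not alike in makeup. Cells called male and female numbered 33 and 41 in control but 21 and 2 in *SM22-SmoM2*. The antigen presentation genes *Cd74* (24707 and 9632 CPM) and *H2-Aa* (8869 and 3701 CPM) were lower in *SM22-SmoM2*, and the phagocyte genes *Cd68* (541 and 845 CPM) and *Lyz2* (6857 and 10576 CPM) were higher. The part of makeup and sex in the result was not tested.

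Counting cells in place of UMIs gave another view. After each cell was thinned to 1500 UMIs, a *Hmox1* UMI was seen in 9.65% of control fibroblasts (99 of 1026, exact binomial interval 7.91 to 11.6%) and 26.3% of *SM22-SmoM2* fibroblasts (272 of 1034, 23.6 to 29.1%). Without thinning the shares were 41.3% and 57.1%, at median depths of 12709 and 11183.5 UMIs. Muscle cells, the lineage with the lowest *Hmox1* level, gave 6.01% and 7.0% after thinning, at median depths of 5566 and 4553 UMIs. For *Srxn1*, the thinned shares of fibroblasts were 7.02% (5.53 to 8.76%) and 10.6% (8.82 to 12.7%), but without thinning they ran the other way, at 36.6% and 33.4%. For *Mt2* they were 7.60% (6.06 to 9.40%) and 10.5% (8.74 to 12.6%), and unthinned 34.5% and 28.5%. For *Mt1* the share was lower in *SM22-SmoM2*, 16.5% (14.3 to 18.9%) against 25.1% (22.5 to 27.9%), although its CPM was higher.

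The UMIs were concentrated in few cells. The median control fibroblast had 0 *Hmox1* UMIs and the highest had 28, whereas the median *SM22-SmoM2* fibroblast had 1, the 90th percentile had 13 and the highest had 90. The 104 *SM22-SmoM2* fibroblasts with the most UMIs of a gene held 66.4% of the *Hmox1* UMIs, 76% of the *Srxn1* UMIs, 66.9% of the *Mt1* UMIs and 83.9% of the *Mt2* UMIs. In control, the 103 highest cells held 59.1%, 55.2%, 44.4% and 69.6%. Sparse counts alone give some concentration.

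To see where these cells lay, fibroblasts were grouped into sub-clusters without using the 9 genes or *Areg*. They fell into 12 sub-clusters, numbered by size, of which 16 combinations of sub-cluster and library had at least 20 cells. Other genes of the same cells made the groups, so the levels describe the sub-clusters and are not tested. *Hmox1* ranged from 25.5 to 996 CPM over the 16, with a median of 61.0 CPM. Just 2 of them stood apart. Sub-cluster 4 (190 *SM22-SmoM2* and 5 control cells, led by *Areg*, *Mmp13*, *Penk* and *Wif1*) had 996 CPM (957 to 1037). Sub-cluster 6 (172 *SM22-SmoM2* cells and 1 control cell, led by *Wif1*, *Egfl6*, *Igfbp2* and *Sox11*) had 914 CPM (869 to 961). The next was control sub-cluster 8 (118 cells, led by *Eln*, *Nov*, *Dlk1* and *Cxcl2*) at 173 CPM (155 to 194).

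The 2 sub-clusters high in *Hmox1* differed in *Srxn1* and the metallothioneins. *Srxn1* was at 475 CPM (448 to 503) in sub-cluster 4 and 24.6 CPM (17.7 to 33.4) in sub-cluster 6, a log2 ratio of 4.27 (3.82 to 4.75). *Mt2* was at 598 and 57.7 CPM, a log2 ratio of 3.37 (3.07 to 3.69). *Mt1* was at 665 and 140 CPM, a log2 ratio of 2.25 (2.05 to 2.45). Sub-cluster 6 thus had high heme oxygenase transcript with *Srxn1* and metallothionein levels inside the range of the remaining sub-clusters, whereas sub-cluster 4 was highest in *Srxn1*, *Mt1* and *Mt2*. Which of them had more *Hmox1* depended on the processing: under 5 of the other settings the one low in *Srxn1* was ahead, by 1338 to 955 CPM with Scrublet calls left out and by 1038 to 1006 CPM with 30 clusters, while their contrast in *Srxn1* stayed. With Leiden clusters in place of k-means, much of sub-cluster 6 fell in the cluster that no list named, and the second highest fibroblast sub-cluster had 233 CPM of *Hmox1* and 229 CPM of *Srxn1*.

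The same pair also differed in *Gclc*, at 30.3 and 12.6 CPM (log2 ratio 1.26, 0.55 to 2.04), and less so in *Txnrd1*, at 102 and 73.3 CPM (0.47, 0.15 to 0.80). *Gclm*, at 41.0 and 46.3 CPM, differed by no more than counting error (-0.18, -0.62 to 0.27). *Hmox1* itself was close in both (log2 ratio 0.12, 0.03 to 0.22). *Nqo1* (6 and 3 UMIs) and *Slc7a11* (3 and 5 UMIs) were too rare to compare.

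Between them, sub-clusters 4 and 6 held 18.4% and 16.6% of the *SM22-SmoM2* fibroblasts. They held 53.5% and 33.5% of the *Hmox1* UMIs of those fibroblasts. For *Srxn1* the shares were 81.3% and 2.88%, for *Mt2* 70.4% and 4.63%, and for *Mt1* 57.3% and 8.23%. The remaining 672 *SM22-SmoM2* fibroblasts had 75.4 CPM of *Hmox1* (69.4 to 81.7), 28.9 CPM of *Srxn1* (25.2 to 32.9), 125 CPM of *Mt1* (117 to 133) and 66.2 CPM of *Mt2* (60.6 to 72.1). With both sub-clusters left out, the log2 ratio of *SM22-SmoM2* over control fibroblasts was 0.11 for *Hmox1*, -0.73 for *Srxn1*, -0.69 for *Mt1* and -0.26 for *Mt2*. Summed over these other cells, *Hmox1* was near its control level and *Srxn1*, *Mt1* and *Mt2* were below it. Both sub-clusters were picked as highest in *Hmox1* and held few control cells (5 and 1), so a lower *Hmox1* ratio was fixed in advance. Control kept sub-cluster 8, with 0 *SM22-SmoM2* cells, at 173 CPM of *Hmox1*, 110 of *Srxn1* and 220 of *Mt2*. These sums thus mix unlike sub-clusters, and the part of makeup was not tested. Sub-clusters shared by both libraries are compared below.

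**Figure D2:**
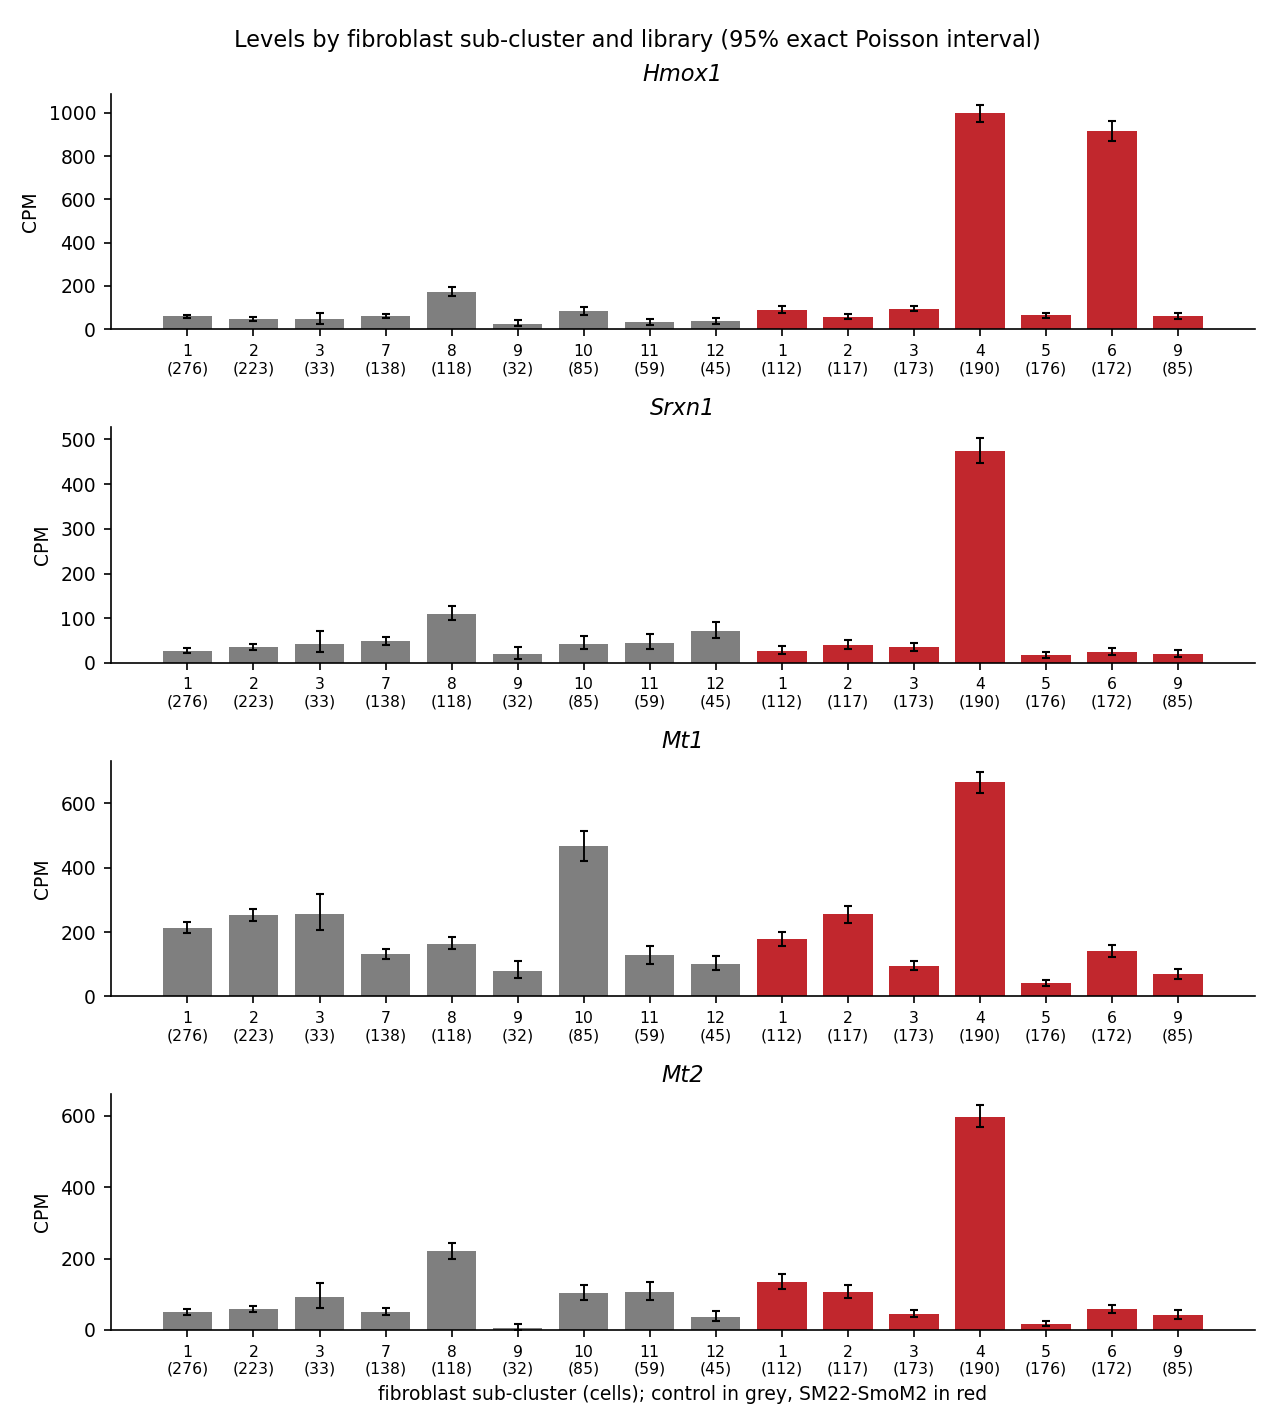
Level (CPM, linear axes that start at 0) of *Hmox1*, *Srxn1*, *Mt1* and *Mt2* in each fibroblast sub-cluster with at least 20 cells of a library, control in grey and *SM22-SmoM2* in red, with 95% exact Poisson intervals and the number of cells in brackets. Sub-clusters 4 and 6 are both high in *Hmox1*, but only sub-cluster 4 is also high in *Srxn1*, *Mt1* and *Mt2*.

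Values of other kinds moved with these groups. The 5 immune markers (*Ptprc*, *Cd68*, *H2-Aa*, *Lyz2*, *Cd74*), all detected, summed to 78.3 CPM in sub-cluster 4, 18.0 CPM in sub-cluster 6 and 21.7 CPM in the remaining *SM22-SmoM2* fibroblasts (in *SM22-SmoM2* immune cells *Cd74* alone reached 9632 CPM). The 6 fibroblast markers summed to 21943, 8069 and 24253 CPM, so sub-cluster 6 was low in them. Cells called female from *Xist* and Y-linked UMIs numbered 1 beside 158 male cells in sub-cluster 4, and 1 beside 136 in sub-cluster 6. Median depth was 12529.5 and 8615 UMIs, and the median mitochondrial share was 1.96% and 1.90%. The part of these values in the result was not tested.

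Sex differed between the libraries and marks which mice gave a cell. Among *SM22-SmoM2* fibroblasts, 774 were called male and 45 female, and *Hmox1* was at 409 CPM (397 to 422) in the male and 59.8 CPM (39.1 to 87.6) in the female cells. *Srxn1* was at 131 and 16.1 CPM, *Mt1* at 254 and 64.4 CPM and *Mt2* at 186 and 18.4 CPM. In control, 621 male cells had 80.6 CPM of *Hmox1* and 193 female cells had 48.9 CPM. Between male cells alone the log2 ratio of *Hmox1* was 2.34, and between female cells alone it was 0.29, with 45 *SM22-SmoM2* cells. The part of sex and of single mice was not tested further. In female cells the log2 ratio had the other sign for *Srxn1* (-0.52), *Mt2* (-0.95), *Mt1* (-1.34), *Txnrd1* (-1.21) and *Gclm* (-0.36). The female *SM22-SmoM2* cells held only 7, 8, 28, 7 and 9 UMIs of these genes. The level intervals of the libraries overlapped for all of them but *Mt1*. Such overlap does not show that the interval of a ratio holds 0, and ratio intervals are not given for the female cells. *Mt1* was there at 163 CPM (147 to 180) in control and 64.4 (42.8 to 93.1) in *SM22-SmoM2*. *Txnrd1* was at 37.3 (29.9 to 46.0) and 16.1 CPM (6.47 to 33.2). Both ratios were past 2-fold lower in *SM22-SmoM2*. The female cells of the 2 libraries lay largely in unlike sub-clusters. Of the 45 in *SM22-SmoM2*, 25 lay in sub-cluster 5, which had 40.2 CPM of *Mt1* and 17.0 CPM of *Srxn1*. Of the 193 in control, 86 lay in sub-cluster 1 and 78 in sub-cluster 2. The part of this makeup in the ratios of female cells was not tested.

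Within the 4 sub-clusters that both libraries shared, *Hmox1* was higher in *SM22-SmoM2*, though in sub-cluster 2 by no more than counting error. *Srxn1* differed by no more than counting error in all 4. Male and female cells numbered 136 and 86 in control but 78 and 2 in *SM22-SmoM2* in sub-cluster 1. They numbered 99 and 78 but 78 and 8 in sub-cluster 2, 18 and 3 but 141 and 2 in 3, and 17 and 11 but 61 and 6 in 9. The part of sex in these ratios was not tested. In sub-cluster 1 (276 control and 112 *SM22-SmoM2* cells, led by *Crabp1* and *Igfbp2*), *Hmox1* was at 59.4 and 90.7 CPM, a log2 ratio of 0.61 (0.28 to 0.94). In sub-cluster 2 (223 and 117 cells, led by *Mmp3*), it was at 46.3 and 58.8 CPM, a log2 ratio of 0.34 (-0.07 to 0.75). The contrast in *Hmox1* passed 2-fold in sub-cluster 3 (33 and 173 cells, led by *Mest* and *Cldn1*), at 45.9 and 95.4 CPM with 15 control UMIs (1.05, 0.30 to 1.92), and in sub-cluster 9 (32 and 85 cells, led by *Gm26870*, *Ube2c* and *Birc5*), at 25.5 and 61.0 CPM with 13 control UMIs (1.26, 0.39 to 2.24). *Srxn1* was at 27.2 and 27.1 CPM in sub-cluster 1, 34.5 and 39.9 CPM in 2, 42.9 and 34.6 CPM in 3, and 19.6 and 19.7 CPM in 9. *Mt2* was higher in *SM22-SmoM2* in 3 of the 4, at 49.9 and 135 CPM in sub-cluster 1 (log2 ratio 1.43, 1.12 to 1.74) and 58.2 and 106 CPM in sub-cluster 2 (0.87, 0.54 to 1.20), while *Mt1* was at 214 and 177 CPM in the first and 253 and 255 CPM in the second. In sub-cluster 9 *Mt2* was at 5.88 CPM on 3 control UMIs and 41.2 CPM (2.81, 1.18 to 5.14), and *Mt1* at 80.3 and 69.6 CPM (-0.21, -0.77 to 0.37). In sub-cluster 3 both were lower in *SM22-SmoM2*, with *Mt1* at 257 and 94.4 CPM and *Mt2* at 91.8 and 45.5 CPM.

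The metallothioneins had patterns of their own elsewhere. Control sub-cluster 10 (85 cells, led by *Eln*, *Fbln7* and *Angptl1*) had 466 CPM of *Mt1*, the second highest after sub-cluster 4, but 103 CPM of *Mt2* and 82.3 CPM of *Hmox1*. Control sub-cluster 8 had 220 CPM of *Mt2* and 110 CPM of *Srxn1*, each the second highest of the 16, with 164 CPM of *Mt1*, close to the median of 152 CPM. *SM22-SmoM2* sub-cluster 5 (176 cells, led by *Penk* and *Wif1*) was lowest in *Mt1* (40.2 CPM) and *Srxn1* (17.0 CPM) and second lowest in *Mt2* (17.5 CPM). The 51 unnamed cells had 554 CPM of *Hmox1* (480 to 636), 27.3 CPM of *Srxn1*, 276 CPM of *Mt1* and 49.1 CPM of *Mt2*.

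*Areg* encodes amphiregulin, a growth factor of the EGF family made in injured epithelia and stroma. It was seen in 98 of the 1034 *SM22-SmoM2* fibroblasts (744 UMIs) and in 17 of the 1026 control fibroblasts (53 UMIs). Its own UMIs were left out of the totals below. Of 7 measured genes, 5 were more than 2-fold higher in *SM22-SmoM2* fibroblasts with *Areg* than in those without, where 2.83% of all genes were, and none was more than 2-fold lower, where 9.84% of all genes were. This contrast also served to choose the genes, and nothing is read from the counts. The median log2 ratio was 1.51 for the 7 genes and -0.22 for all genes measured.

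The difference was largest for *Srxn1*, at 485 CPM in the 98 cells with *Areg* and 72.0 CPM in the 936 without, a log2 ratio of 2.75 (2.60 to 2.91). *Mt2* was at 450 and 138 CPM (1.71, 1.57 to 1.85), *Hmox1* at 978 and 303 CPM (1.69, 1.60 to 1.78) and *Mt1* at 554 and 196 CPM (interval of the log2 ratio 1.37 to 1.62). *Gclc*, which did not differ between the libraries, was at 29.2 and 10.2 CPM here (1.51, 0.95 to 2.05), on 40 and 108 UMIs. *Txnrd1* (75.9 and 54.2 CPM) and *Gclm* (47.4 and 34.4 CPM) lay within 2-fold, and *Nqo1* and *Slc7a11* had 3 UMIs each in the cells with *Areg*.

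Cells with *Areg* were deeper, with a median of 12716.5 UMIs against 10940.5. After thinning to 1500 UMIs, with *Areg* still called on all UMIs, *Srxn1* was seen in 42.9% of cells with *Areg* (32.9 to 53.3%) and 7.26% of cells without (5.69 to 9.12%). For *Hmox1* the shares were 54.1% and 23.4%, for *Mt1* 34.7% and 14.6%, and for *Mt2* 26.5% and 8.87%. Without thinning, *Srxn1* was seen in 76.5% and 28.8% of the cells. The marker lists of other lineages summed, in cells with and without *Areg*, to 23.3 and 34.0 CPM for immune cells, 16.1 and 40.0 CPM for muscle (*Myh11* at 0 with *Areg*), and 48.9 and 62.4 CPM for keratinocytes (*Krt5* and *Krt1* at 0). The endothelial list was higher with *Areg*, at 60.6 against 48.2 CPM, and the Schwann cell list stood at 14.6 and 13.4 CPM, with *Sox10* at 0 and its 4 other genes detected. Their part in the split was not tested.

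**Figure D3:**
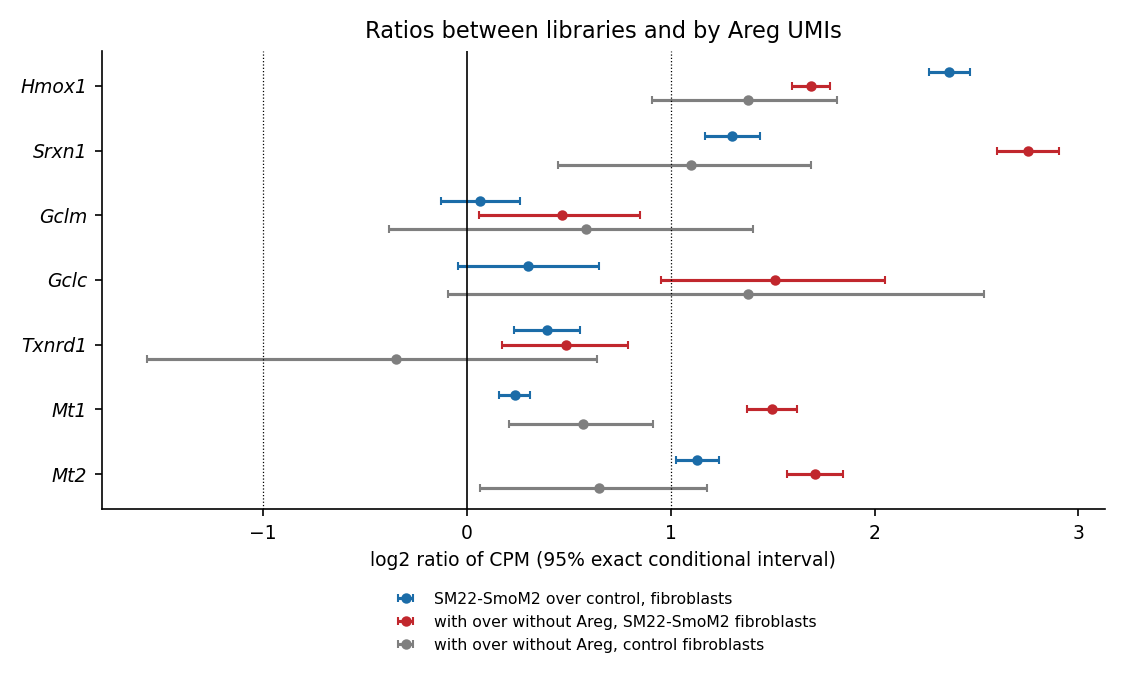
Log2 ratio of CPM (linear axis) with 95% exact conditional intervals for the 7 genes with enough UMIs, for *SM22-SmoM2* over control fibroblasts in blue, and for cells with over cells without *Areg* in *SM22-SmoM2* fibroblasts in red and in control fibroblasts in grey. The dotted lines mark 2-fold. *Hmox1* lies farthest right between libraries (2.37) and *Srxn1* with *Areg* in *SM22-SmoM2* fibroblasts (2.75).

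By number of *Areg* UMIs, *Srxn1*, *Hmox1* and *Mt1* were higher in each step, although the first step of *Mt1* and the second of *Hmox1* lay within overlapping counting intervals. *Srxn1* was at 72.0 CPM in the 936 cells with 0, 172 CPM in the 27 cells with 1, 494 CPM in the 27 cells with 2 to 4 and 660 CPM in the 44 cells with 5 or more. *Hmox1* was at 303, 565, 687 and 1393 CPM, and *Mt1* at 196, 222, 509 and 772 CPM. *Mt2* was at 138, 194, 567 and 526 CPM, its last pair within counting error. *Gclm* (34.4, 47.1, 36.6 and 54.2 CPM) and *Txnrd1* (54.2, 63.7, 86.2 and 76.6 CPM) differed less. Median depth was 10940.5, 11322, 13581 and 13304.5 UMIs over the same steps. Sub-cluster 4 held 651 of the 744 *Areg* UMIs of these fibroblasts. The part of depth and sub-cluster in the steps was not tested.

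**Figure D4:**
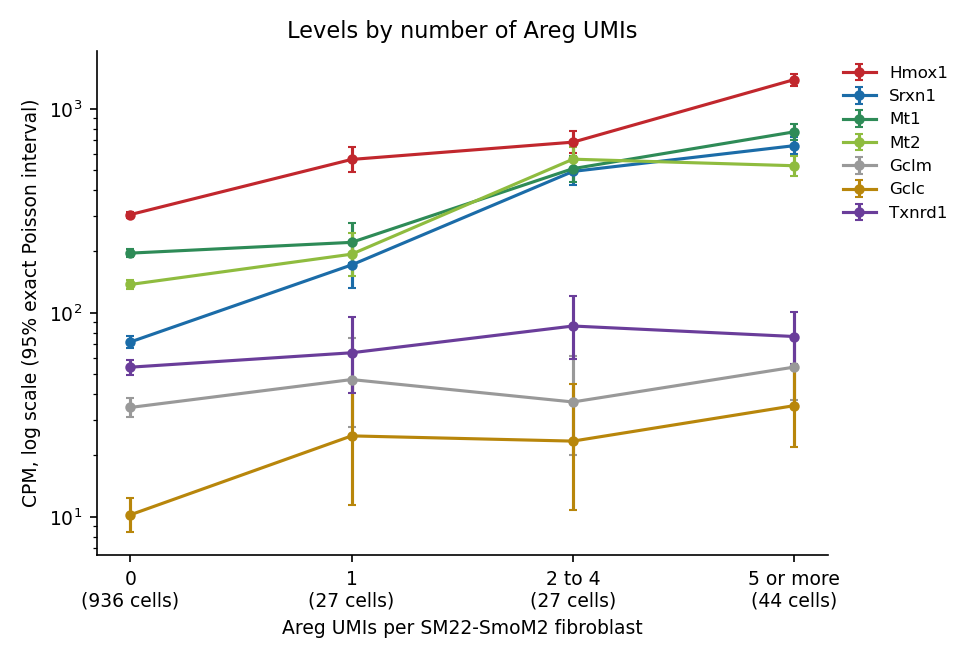
Level (CPM, log axis) of 7 genes in *SM22-SmoM2* fibroblasts by the number of *Areg* UMIs in the cell, with 95% exact Poisson intervals and the number of cells in brackets. *Srxn1* goes from 72.0 to 660 CPM, while *Gclm* stays between 34.4 and 54.2 CPM.

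The split by *Areg* followed the sub-clusters to a large extent. Of the 98 cells, 66 lay in sub-cluster 4, which was formed without *Areg*. Inside that sub-cluster, the 66 cells with and the 124 cells without *Areg* differed less in the metallothioneins, with *Mt2* at 583 and 607 CPM (log2 ratio -0.06, -0.21 to 0.10) and *Mt1* at 734 and 622 CPM (0.24, 0.09 to 0.38). *Srxn1* still differed, at 683 and 342 CPM (0.997, 0.83 to 1.17), as did *Hmox1*, at 1182 and 879 CPM (0.43, 0.31 to 0.54). No gene passed 2-fold there, but *Srxn1* fell only just short of it. *Txnrd1* was lower with *Areg* there, at 83.3 and 113 CPM (-0.45, -0.85 to -0.05), against a log2 ratio of 0.49 over all *SM22-SmoM2* fibroblasts. Outside it, the 32 cells with *Areg* had 519 CPM of *Hmox1* against 209 CPM in 812 cells (1.32, 1.11 to 1.52) and 152 against 60.6 CPM of *Mt2* (1.32, 0.93 to 1.70), whereas *Srxn1* (40.3 and 27.6 CPM) did not differ beyond counting error (0.55, -0.25 to 1.26). Of these 32 cells, 13 were among the 172 *SM22-SmoM2* cells of sub-cluster 6, which had 914 CPM of *Hmox1*. The part of sub-cluster 6 in this contrast was not tested.

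In control fibroblasts the 17 cells with *Areg* gave the same direction for most genes with far less data. Of these cells, 16 were called male and 0 female, against 605 and 193 without *Areg*. A single cell held 32 of their 53 *Areg* UMIs. The part of sex in this split was not tested. *Hmox1* was at 187 CPM with and 71.8 CPM without *Areg* (44 and 953 UMIs, log2 ratio 1.38, 0.91 to 1.81), and *Srxn1* at 102 and 47.5 CPM (24 and 630 UMIs, 1.10, 0.45 to 1.69). *Gclc* also passed 2-fold but on 6 UMIs (1.38, -0.10 to 2.54). *Mt1* (297 and 200 CPM, 0.57, 0.20 to 0.91) and *Mt2* (123 and 78.5 CPM, 0.65, 0.06 to 1.18) did not. These were 3 of 7 measured genes, where 11.6% of all genes passed 2-fold upward and 9.43% downward. The upward share can include genes not seen in the 17 cells, because a count of 0 was set to 3 UMIs. It is thus no plain rate of genes higher with *Areg*. Whether the split by *Areg* was larger in *SM22-SmoM2* than in control was not tested.

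Within single fibroblasts, *Hmox1* and other genes of the set were detected together at modest rates. After thinning, 54 *SM22-SmoM2* cells had both *Hmox1* and *Srxn1*, where the product of the 2 shares gives 28.9 cells. The figures were 52 and 28.7 for *Hmox1* with *Mt2*, and 63 and 45.0 for *Hmox1* with *Mt1*. In control, 11 cells had both *Hmox1* and *Srxn1*, where the product gives 6.95. Pearson's r of log counts over the cells, which share a library, was 0.25 for *Hmox1* and *Srxn1* in *SM22-SmoM2* and 0.08 in control, a weak relation in sparse counts. *Mt1* and *Mt2* were closer in *SM22-SmoM2*, with 59 cells where the product gives 18.0 (r 0.42). In control they shared 32 cells, where it gives 19.6 (r 0.11). *Srxn1* in *SM22-SmoM2* gave 28 and 11.6 cells with *Mt2* and 38 and 18.2 with *Mt1*. Not every pair exceeded the product, such as *Srxn1* with *Gclm* there (3 and 5.74).

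The regulators of the pathway were looked at next. *Bach1*, the repressor of *Hmox1*, was at 35.2 CPM in control and 72.7 in *SM22-SmoM2* fibroblasts (log2 ratio 1.05, 0.88 to 1.21), and *Mafk*, a small MAF protein that pairs with both NRF2 and BACH1, at 17.3 and 50.4 CPM (1.54, 1.32 to 1.76). They were the 2 of 10 NRF2 regulators past 2-fold, where 4.68% of all genes were higher and 4.95% lower. *Nfe2l2* was at 85.6 and 103 CPM and *Keap1* at 49.2 and 30.6 CPM. With *Areg*, *Nfe2l2* was at 187 against 92.2 CPM without (1.02, 0.81 to 1.22) and *Bach1* at 150 against 62.7 CPM (1.26, 1.03 to 1.49). These were again 2 of 10, where 2.83% of all genes were higher. Between the 2 sub-clusters high in *Hmox1*, *Mafk* was at 101 CPM in sub-cluster 4 and 121 CPM in sub-cluster 6, *Bach1* at 175 and 88.4 CPM, and *Nfe2l2* at 191 and 153 CPM.

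Related enzymes moved in both directions between the libraries. Of 19 genes of glutathione synthesis and use, 3 were more than 2-fold higher and 2 lower. Beside this and the list counts that follow between libraries, 4.68% of all genes were higher and 4.95% lower. The glutathione transferases *Gsta4* (11.9 and 59.2 CPM, log2 ratio 2.31, 2.06 to 2.57) and *Mgst3* (149 and 602 CPM, 2.02, 1.94 to 2.09) were higher, as was *Chac1*, which degrades glutathione, on 27 and 53 UMIs (1.15, 0.46 to 1.88). The microsomal transferase *Mgst1* (320 and 136 CPM, -1.23, -1.32 to -1.15) and *Ggt5*, which cleaves glutathione conjugates (10.1 and 3.02 CPM, -1.74, -2.31 to -1.20), were lower. The median of the 19 was -0.19.

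Of 15 thioredoxin, peroxiredoxin, dismutase and catalase genes, only *Sesn2*, a stress-induced sestrin, was more than 2-fold higher (6.07 and 19.4 CPM, log2 ratio 1.67, 1.30 to 2.05). Extracellular superoxide dismutase *Sod3* (69.6 and 11.4 CPM, -2.61, -2.88 to -2.35) and mitochondrial *Txnrd2* (11.9 and 5.78 CPM, -1.04, -1.46 to -0.62) were more than 2-fold lower. No gene of NADPH supply passed 2-fold, from *Tkt* (0.36) down to *Me1* (-0.68). Among 10 measured heme and iron genes, the iron exporter *Slc40a1* (ferroportin) was higher (21.0 and 60.6 CPM, 1.53, 1.33 to 1.73) and ceruloplasmin *Cp* lower (14.8 and 4.02 CPM, -1.88, -2.37 to -1.42). Of 6 other NRF2 targets measured, *Cbr3* was higher (17.9 and 46.6 CPM, 1.38) and *Ephx1* lower (12.4 and 6.12 CPM, -1.02).

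Of 9 zinc and copper genes, *Mt3* (20 and 58 UMIs, log2 ratio 1.71, 0.96 to 2.53) and *Mt4* (7 and 54 UMIs, 3.13, 1.99 to 4.51), the metallothioneins known from brain and squamous epithelium, were higher. No gene of the integrated stress response passed 2-fold, from *Atf4* (0.61) to *Asns* (-0.46), no heat shock gene, from *Dnajb1* (0.74) to *Hspb1* (-0.78), and no gene that answers to glucocorticoids, from *Klf9* (0.83) to *Fkbp5* (-0.25). Of 10 immediate early genes, *Nr4a1* (84.3 and 352 CPM, 2.06), *Fosb* (72.1 and 175 CPM, 1.28) and *Ier2* (256 and 522 CPM, 1.03) were higher and none was lower. Among 8 measured hypoxia genes, *Vegfa* was higher (11.6 and 44.6 CPM, 1.94) and *Bnip3* lower (46.7 and 9.05 CPM, -2.37), so the list had no common direction. The median log2 ratio was 0.72 over the immediate early genes, 0.50 over the glucocorticoid genes, 0.21 over the heat shock genes, 0.05 over the integrated stress response, -0.03 over zinc and copper genes and -0.27 over hypoxia genes, beside -0.08 over all genes.

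Between *SM22-SmoM2* fibroblasts with and without *Areg*, 2 of 18 measured glutathione genes were more than 2-fold higher, as were 1 of 15 thioredoxin and dismutase genes, 1 of 6 other NRF2 targets and 2 of 9 zinc and copper genes. Of the 15 thioredoxin and dismutase genes, 2 were more than 2-fold lower. Among all genes, 2.83% were higher and 9.84% lower, and nothing is read from counts in such short lists. No gene of NADPH supply, heme and iron, the integrated stress response or the glucocorticoid list passed 2-fold. *Ugdh*, an NRF2 target that makes UDP-glucuronate, was at 381 and 137 CPM (log2 ratio 1.47, 1.33 to 1.62), and *Slc3a2*, the partner of *Slc7a11* in the cystine importer, at 317 and 151 CPM (1.07, 0.92 to 1.23). *Sesn2* was at 49.6 and 15.4 CPM (1.68), while *Txnip*, the inhibitor of thioredoxin, was lower at 11.7 and 42.8 CPM (-1.87, -2.69 to -1.16), as was *Sod3* on 3 and 133 UMIs (-2.52, -4.82 to -0.95). *Mt4* (20 and 34 UMIs, 2.18) and *Mt3* (16 and 42 UMIs, 1.55) were again higher. *Junb* (3251 and 1603 CPM, 1.02), *Nr4a1* (692 and 308 CPM, 1.17), *Vegfa* (107 and 36.5 CPM, 1.54) and *Ndrg1* (336 and 109 CPM, 1.62) were higher, and the heat shock gene *Hspa1a* was lower (151 and 467 CPM, -1.63, -1.84 to -1.43).

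Over the 16 combinations of sub-cluster and library, the 5 genes most like *Hmox1* among 8104 were *Tfam* (Pearson's r 0.95), *Chd1* (0.93), *Mafk* (0.93), *Pou2f2* (0.92) and *Cebpb* (0.92). The closest to *Mt1* were *Myo1e* (0.83), *Slc6a8* (0.79), *Usp9x* (0.77), *Mt2* (0.77) and *Camk2d* (0.76). *Hmox1* itself had an r of 0.75 with *Txnrd1*, 0.58 with *Gclc* and *Mt2*, 0.54 with *Srxn1*, 0.40 with *Mt1* and 0.11 with *Gclm*. These values describe 16 points that share libraries, and 10 CPM were added before the log. *Hmox1* was at 996 and 914 CPM in *SM22-SmoM2* sub-clusters 4 and 6 and at 173 CPM in the next. Its r values thus rest largely on whether a gene was also high in these 2 points.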

How the data were processed

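The libraries were made with 10x Chromium v2 chemistry from sorted Tomato+ cells of pooled wounds. The authors aligned reads to the mouse genome (mm10) with Cell Ranger after bcl2fastq, versions not given in the sources used here, and deposited raw UMI counts per gene and cell for 1 library per condition. Cells with at least 200 genes and at most 10% mitochondrial UMIs were kept (4648 of 4680). Counts were scaled to 10000 per cell and logged, and k-means on 20 principal components (K = 20, then 15 for fibroblasts; scikit-learn 1.9.0) was run without the 9 genes and *Areg*. Clusters were named from marker lists, and the rule for leaving out mixed sub-clusters was set after the clusters were seen. UMIs were summed per group and divided by the group total. With 1 library per condition there is no test. Levels carry exact Poisson intervals, ratios exact conditional intervals and shares exact binomial intervals (scipy 1.17.1). Of these, only the ratio intervals were checked on simulated data. The simulated counts were drawn for whole groups with no spread between cells, unlike the real UMIs. A gene needed 50 UMIs over both groups and a 2-fold ratio to be counted.

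The members and lists were chosen with earlier results of these data known. From each list, the genes past 2-fold whose interval left out 0 were named, at most the 3 highest and 3 lowest, or otherwise its highest and lowest gene. Most alike were the 5 genes with the highest Pearson's r of log2(CPM + 10). Sex was called per cell from *Xist* and Y-linked UMIs. Barcodes shared by the libraries could not be counted, because the matrix columns carry none. Doublets were kept, with Scrublet tried as an alternative. Total UMIs of the kept cells were 30103855 in control and 17814222 in *SM22-SmoM2*.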

Additional observations from a re-analysis of the deposited data

Results flagged for a closer look

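For 3 genes with at least 50 UMIs in both comparisons, the log2 ratio between the libraries had opposite signs in fibroblasts and in another lineage, with both intervals clear of 0. *Txnrd1* had a log2 ratio of -0.27 in Schwann cells and 0.39 in fibroblasts. *Mt1* had -0.24 in Schwann cells and 0.23 in fibroblasts. *Mt2* had -0.62 in muscle cells, on 36 *SM22-SmoM2* UMIs, and 1.13 in fibroblasts. Each rests on 1 library per condition, and the difference between the lineages was not tested.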

How the results depend on the processing

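No paired analysis was possible because each condition has 1 library. Of 56 counts of genes past 2-fold recomputed under other settings, 46 stayed within 1.5 times the reported count. Between libraries in fibroblasts, the count of 3 became 1 without the cells that had *Areg* UMIs. Under alternatives chosen after seeing the data it became 1 without sub-cluster 4, 0 without sub-clusters 4 and 6, 1 in sub-clusters with 50 cells of both libraries, and 0 in male cells without both. Sub-clusters 4 and 6 were picked as highest in *Hmox1*, so a lower *Hmox1* ratio without them was fixed in advance. The log2 ratios of *Srxn1* and *Mt2* changed sign in female cells (-0.52 and -0.95), without sub-cluster 4 (-0.77 and -0.29), without both (-0.73 and -0.26) and in male cells without both (-0.87 and -0.46). Genes within 2-fold turned too: *Mt1* (-1.34) and *Txnrd1* (-1.21) in female cells, *Mt1* (-0.66) and *Gclc* (-0.34) without sub-cluster 4, and *Mt1* (-0.69), *Gclc* (-0.55), *Txnrd1* (-0.14) and *Gclm* (-0.10) without both. In female cells, *Srxn1*, *Mt2* and *Txnrd1* rest on 7, 8 and 7 *SM22-SmoM2* UMIs, with level intervals that overlap those of control. That overlap does not show that the intervals of their ratios hold 0. Female cells of the 2 libraries also lay largely in unlike sub-clusters, and the part of this was not tested. For the split by *Areg* in *SM22-SmoM2*, the count of 5 became 0 inside sub-cluster 4, where *Mt2* (-0.059) and *Txnrd1* (-0.45) changed sign, and 2 outside it. Inside, *Srxn1* fell just short of 2-fold (0.997). In control the count of 3 became 5 after thinning, 5 with no UMI minimum and 1 with at least 2 *Areg* UMIs. Both counts of 5 can hold genes not seen with *Areg*, because a count of 0 was set to 3 UMIs. With no minimum, *Slc7a11* was counted as higher on 0 UMIs with and 20 without *Areg*. After thinning, the log2 ratio of *Txnrd1* was 4.59, beside -0.35 unthinned, so nothing is read from these counts. These settings use fewer cells, fewer UMIs or another minimum; further causes were not tested. Leaving out the few cells Scrublet marked (7 and 10) also changed the clusters, and *Hmox1* in fibroblasts was then 2.93. With Leiden clusters it was 1.95, and 98 of the 172 cells of sub-cluster 6 lay in the unnamed cluster. Depth limits *Nqo1*, *Slc7a11* and, in the split by *Areg* in control, *Gclc*.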
